A study of Mus musculus with 10 samples.

Results

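The genes that encode the proteins of the cytosolic ribosome were followed in inguinal white adipose tissue (iWAT), the fat pad of the groin, of male C57BL/6 mice by RNA-seq. The genes were chosen by name alone, as protein-coding genes called Rpl or Rps followed by a number (with a letter, a further digit or a final l where present), together with Rplp0, Rplp1, Rplp2 and Rpsa. This rule took 84 of the 51826 genes listed, 52 of the large and 32 of the small subunit. The 10 libraries, 1 per mouse, form 4 groups. The F1 mice, 5 weeks old, comprised 3 sons of fathers fed the control diet (CD) and 3 sons of fathers fed a low-protein diet (pLPD). The F1 mice themselves and their mothers ate CD, and the 3 mice of a group had different mothers. The F0 mice were 10 to 12 weeks old and comprised 2 males kept on CD and 2 kept on LPD since weaning. F1 and F0 mice also differed in age, and their library names carry different prefixes whose meaning the labels do not give, so generation, age and whatever the prefix stands for cannot be told apart. The adipocyte markers (7 genes, among them Adipoq, Plin1 and Fabp4) summed to between 10277 and 18129 counts-per-million (CPM, exon reads scaled to the library's exon total) in every library, so the labelled tissue carried the transcripts that define it.

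As background, nearly all of these proteins are present in every ribosome, and cells make them in matched amounts. Their genes are small and highly transcribed, and their mRNAs begin with a 5' terminal oligopyrimidine (TOP) tract. Through this tract the mTOR kinase, with 4E-BPs and Larp1, couples their translation to amino acid supply. The same mRNAs have been copied back into the mouse genome many times, so that many of the genes have near-identical processed copies elsewhere. Rplp0, also known as 36B4, is widely used as a reference gene in qRT-PCR, and the study used it so for its own qRT-PCR.

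The 84 genes were a small and steady part of the library. They took 1.82 to 2.30% of all exon reads, between 134461 and 196512 reads per library. The share was 1.95, 1.94 and 2.13% in the 3 F1 CD mice and 2.12, 2.30 and 2.21% in the 3 pLPD mice, and these ranges overlapped. In F0 it was 1.85 and 1.96% on CD against 1.94 and 1.82% on LPD. Reads on introns were 1.68 to 2.30% of the reads on these genes, whereas over all nuclear protein-coding genes they were 36.0 to 48.4%. The order by level of the 83 genes tested over all 10 libraries was similar between any 2 libraries. Spearman's rho ran from 0.914 to 0.996 over 45 pairs of libraries, a description of genes measured in the same tissue.

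Levels per length (RPKM, mapped reads scaled to exon length and library total) spanned a wide range. Rplp1, an acidic protein of the stalk that recruits translation factors, had the highest mean, 350.2 ± 47.8 RPKM (SD, n = 10). Rps15, Rps24 and Rps3a1 of the small subunit followed with 256 ± 49.3, 254 ± 49.9 and 238 ± 22.0 RPKM, so their order does not go beyond their spread. Of the 84 genes, 70 had 20 RPKM or more and 5 had under 5 RPKM. Rpl27, Rps12 and the 3 paralogs Rpl39l, Rpl3l and Rpl10l formed the low end. Rps12 stood at 3.65 ± 0.61 RPKM and Rpl27 at 3.33 ± 0.75 RPKM, both proteins of the core ribosome. The exon length behind an RPKM value joins the exons of all annotated transcripts and ran from 404 to 6270 bases, so a gene with long rare transcripts is ranked lower than its mRNA count would place it.

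For Rps12 and Rpl27, far more reads were listed under a retrocopy than under the gene. Reads were 36 bases from each end of a fragment, and total counts include reads that fit several places. How those were assigned is not given in the sources used here. The retrocopy Rps12-ps3 (chr19:59322290-59322783) was listed with 17016 exon reads over the 10 libraries, of which 2 were unique to it, beside 1227 on Rps12 itself (chr10:23785183-23787275). Rpl27-ps3 held 10001 reads with 0 unique ones, beside 855 on Rpl27. For Rpl10 (chrX:74270812-74273135), the split was 21460 reads on Rpl10-ps3 (chr9:50344201-50344968), 4 of them unique, against 6184 on the gene. Gm2000 (chr1:156366040-156366484) took 18401 reads, 1 of them unique, against 5268 on Rpl35 (chr2:39001580-39005624). In these 4 pairs the copy was listed with 77.6 to 93.3% of the sum. Positions are those of the deposited tables (mm10, GRCm38), and each of these 4 copies is listed as protein-coding.

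A stretch of the coding sequence of 4 pairs, from GENCODE vM21 transcripts of GRCm38, is printed because it shows how alike gene and copy are. Rpl10 and Rpl10-ps3 were identical at 645 of 645 coding bases, Rps12 and Rps12-ps3 at 399 of 399, and Rps27 and Rps27rt at 255 of 255, while Rpl35 and Gm2000 differed at 1 of 372 positions. Capitals mark a base that differs between the 2 sequences of a pair.
Rpl10 and Rpl10-ps3, coding bases 1 to 60: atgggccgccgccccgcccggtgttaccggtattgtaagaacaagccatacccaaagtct
Rps12 and Rps12-ps3, coding bases 1 to 60: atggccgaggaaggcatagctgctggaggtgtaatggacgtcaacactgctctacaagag
Rps27 and Rps27rt, coding bases 1 to 60: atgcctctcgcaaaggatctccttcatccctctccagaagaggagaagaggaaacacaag
Rpl35, coding bases 58 to 117: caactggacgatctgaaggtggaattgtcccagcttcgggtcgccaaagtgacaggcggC
Gm2000, same window: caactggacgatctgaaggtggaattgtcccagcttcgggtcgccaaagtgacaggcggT

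The paralogs encode related proteins and differ at more positions. Unique reads were 94.1% of the total for Rps27l, but 35.5% for Rpl36al, 43.3% for Rpl7l1 and 46.8% for Rpl22l1. Rps27l, a relative of Rps27 known as a p53 target, matched Rps27 at 194 of 255 coding positions. Rpl36al matched Rpl36a at 282 of 321 and Rpl39l matched Rpl39 at 133 of 156. Rpl3l, the striated muscle relative of Rpl3, matched it at 898 of 1212. The windows below hold the most differences of each pair.
Rps27, coding bases 4 to 63: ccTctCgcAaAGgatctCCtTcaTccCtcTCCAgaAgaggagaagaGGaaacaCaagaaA
Rps27l, same window: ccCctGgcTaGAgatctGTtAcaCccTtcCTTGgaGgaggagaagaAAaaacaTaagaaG
Rpl36a, coding bases 115 to 174: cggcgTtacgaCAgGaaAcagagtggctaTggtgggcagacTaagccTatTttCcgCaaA
Rpl36al, same window: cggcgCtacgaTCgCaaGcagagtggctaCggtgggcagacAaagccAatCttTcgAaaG
Rpl3, coding bases 163 to 222: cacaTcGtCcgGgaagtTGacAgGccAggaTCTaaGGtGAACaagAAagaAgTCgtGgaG
Rpl3l, same window: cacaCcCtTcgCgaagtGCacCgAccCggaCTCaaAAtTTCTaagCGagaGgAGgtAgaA

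Over the whole family, 37.2 to 37.8% of exon reads per library were unique, against 86.1 to 87.4% over all genes. The share differed widely between genes. It was 0.65% for Rps23, 0.84% for Rps6, the S6 kinase substrate, 0.85% for Rps27 and 1.31% for Rpl17. All exon reads on Rpl3l and Rpl39l were unique, and 27359 of 27363 on Rpl8. In total 12 genes lay under 5% and 9 at or above 90%. The share followed the sequence in part: of all 36-base stretches in a gene's annotated transcripts, a median of 56.7% occurred in no other annotated transcript, and this percentage correlated with the unique read share with Pearson's r = 0.57 and Spearman's rho = 0.56 across 84 genes, which share libraries and are not independent. Rps23 and Rps27 had few unique reads although 47.6 and 51.4% of their stretches occurred in no other annotated transcript. Copies in the genome that have no annotated transcript were not in this count.

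**Figure D1:**
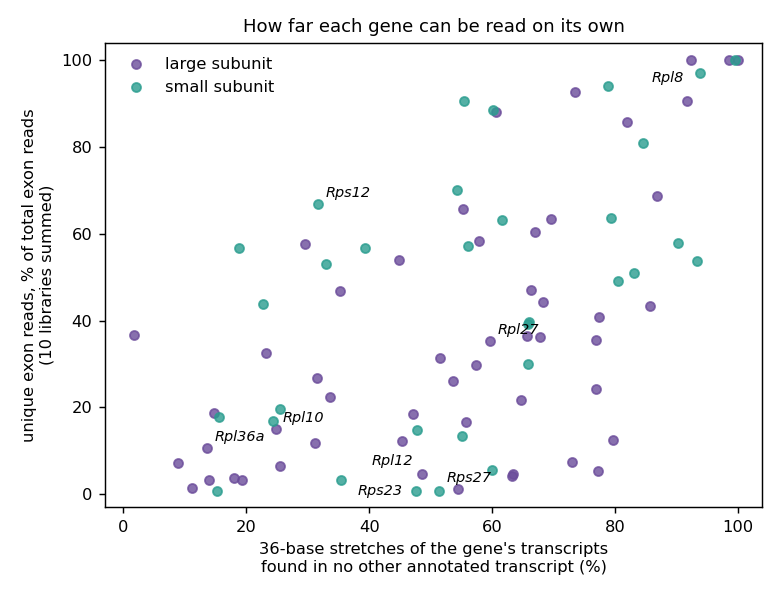
Unique exon reads as a percent of total exon reads (y axis) against the percent of 36-base stretches found in no other annotated transcript (x axis), 1 point per gene, coloured by subunit. Rpl8 lies at the upper right with 92.4% on the x axis, whereas Rps23 and Rps27 lie at the bottom with 0.65 and 0.85% unique reads.

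In F1, the comparison of pLPD with CD sons asks whether a father's diet leaves a trace in the ribosomal protein mRNAs of his offspring's fat. No single gene passed the test, and the family as a whole lay slightly on the higher side. By edgeR's quasi-likelihood test on total exon reads, 82 of the 84 genes could be tested, and 0 were called higher and 0 lower at an adjusted p under 0.05. Among all 14049 genes tested, 0.142% were called higher and 1.02% lower. DESeq2 and limma on log2 RPKM also called 0 members. At an unadjusted p under 0.05, 6 members were higher (6.57% of all genes) and 0 lower (8.76% of all genes). The log2 fold change was above 0 in 68 of 82 members and in 51.4% of all genes, with a median of 0.08 over the members (quartiles 0.03 and 0.13) and 0.01 over all genes. All 3 pLPD mice lay above all 3 CD mice for 22 of 82 members, where the same held for 9.78% of all genes. All 3 lay below for 0 members, against 10.3% of all genes.

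Unique exon reads gave a similar account at lower depth. Of 82 members tested, 0 were called higher (0.324% of 12954 genes) and 0 lower (1.47% of genes) by edgeR. At an unadjusted p under 0.05, 8 were higher (6.65% of genes) and 0 lower (9.2% of genes). The log2 fold change was above 0 in 57, with a median of 0.10. Every pLPD mouse was above every CD mouse for 17 members (9.78% of genes) and below for 0 (10.2% of genes). Over the 81 members fitted with both kinds of read in each generation, the sign was the same for 62 in F1.

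The direction over the family depends on the scale. The values above are relative to exon reads, with TMM normalisation. The authors' RPKM divides by all mapped reads, and exons held 39.3 to 45.4% of the reads on genes in the pLPD mice against 49.2 to 51.2% in the CD mice. On log2 RPKM, the median of all genes moved to -0.15 and that of the members to -0.08, with 11 of 82 members above 0. Relative to the median of all genes, the members stood 0.08 higher on exon reads and 0.07 higher on RPKM (log2). Of the 82 members, 67 lay above the all-gene median on exon reads and 65 on RPKM. In RPKM, every pLPD mouse was higher for 1 member (1.69% of all genes) and lower for 7 (23.6% of all genes).

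The 3 pLPD mice were not alike. The score of a mouse was taken as the median log2 level of the members, each relative to its mean over the 6 F1 mice. It was -0.05, -0.06 and -0.02 in the CD mice and -0.03, 0.09 and 0.08 in the pLPD mice, so pLPD mouse 1 lay among the controls and the groups overlapped. In unique reads the scores were -0.05, -0.05 and -0.01 against -0.03, 0.09 and 0.06, the same arrangement. By subunit, the median log2 fold change was 0.08 over 50 large and 0.09 over 32 small subunit genes. The spread between mice of a group was small for these genes, with a median SD of 0.08 (log2) against 0.17 over all genes and 0.11 over 2452 other genes of like level.

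**Figure D2:**
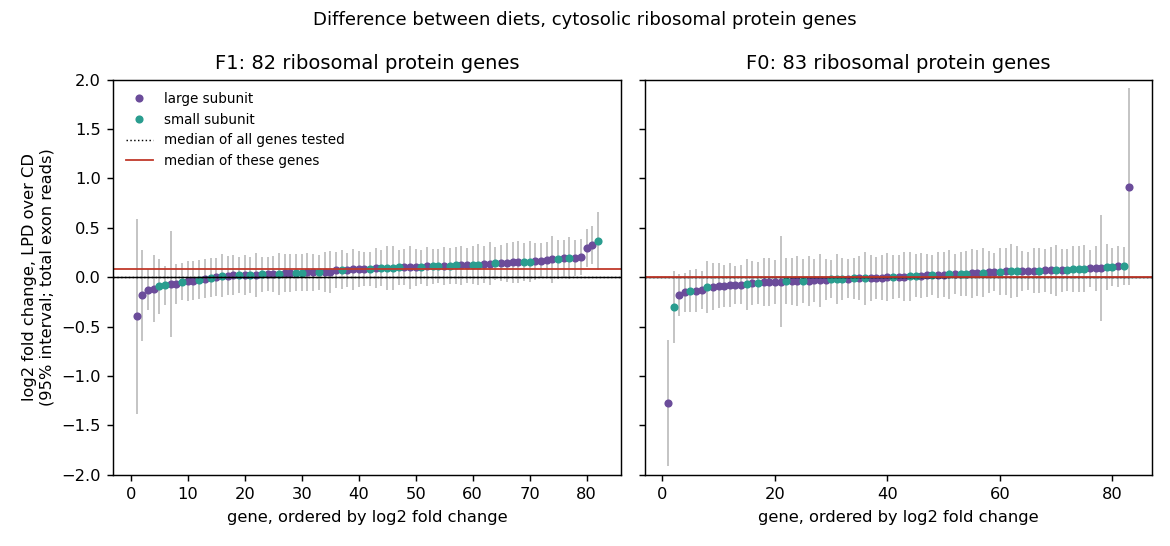
Log2 fold change of LPD over CD (y axis) with its 95% interval for each ribosomal protein gene, ordered by value (x axis), in F1 (left, 82 genes) and F0 (right, 83 genes). The median, drawn as a red line, is 0.08 in F1 and 0.00 in F0, beside 0.01 and 0.00 for all genes (dotted). Rpl3l is the lowest point in F0.

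Rplp0, the P stalk protein and qRT-PCR reference, is described first because other measurements are divided by it. Its normalised CPM values were 666, 705 and 692 in the CD mice and 722, 802 and 760 in the pLPD mice. Every pLPD mouse was above every CD mouse, by a narrow margin. The log2 fold change was 0.15 ± 0.09 (SE, n = 3 per group), with a 95% interval from -0.05 to 0.34 and an adjusted p of 0.474 by edgeR. On log2 RPKM the value was -0.02, so its direction turned with the scale. In F0 it was 614 and 647 CPM on CD and 640 and 589 on LPD, log2 fold change -0.04 ± 0.11 (SE, n = 2 per group), with an interval from -0.29 to 0.22. A log2 difference of 0.5 or more in either direction lay outside the interval in both generations.

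The 4 members with the smallest p-values on the higher side were Rpl36a, Rpl21, Rps12 and Rpl12. Rpl36a, a large subunit protein near the tRNA exit site, had 64.8, 58.8 and 64.2 CPM in CD and 80.0, 73.7 and 81.6 CPM in pLPD mice. The groups did not overlap, and the log2 fold change was 0.33 ± 0.09 (SE, n = 3 per group), adjusted p = 0.107 by edgeR. Its unique reads, few in number, gave 4.98, 6.52 and 7.71 CPM against 11.5, 12.8 and 10.0 CPM, also without overlap, with a log2 fold change of 0.84 ± 0.22 (SE, n = 3 per group) and an adjusted p of 0.0787 by edgeR. Exon junction reads gave 0.24 ± 0.12, adjusted p = 0.450 by edgeR.

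Rpl21, another large subunit protein, had 91.9, 101 and 105 CPM in CD and 117, 121 and 129 CPM in pLPD mice, again without overlap. Its log2 fold change was 0.30 ± 0.09 (SE, n = 3 per group), adjusted p = 0.126 by edgeR, and its unique reads gave 0.15 ± 0.16 with overlapping groups. Rpl12, at the base of the stalk, had 284, 297 and 302 CPM in CD and 322, 359 and 338 CPM in pLPD mice, log2 fold change 0.21 ± 0.08 (adjusted p = 0.279 by edgeR). In its unique reads, 4.70% of the total, the value was -0.05 ± 0.14 and the groups overlapped.

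Rps12, a small subunit protein at the head of the particle, had the highest log2 fold change of the family in F1 on total reads. Its level was 17.4, 14.2 and 15.3 CPM in CD and 21.0, 20.0 and 19.6 CPM in pLPD mice, without overlap, with a log2 fold change of 0.37 ± 0.13 (SE, n = 3 per group) and an adjusted p of 0.213 by edgeR. With the reads of Rps12-ps3 added, the sums were 222, 238 and 256 against 252, 292 and 280 CPM (not TMM-scaled), which overlap. The log2 fold change was then 0.16 ± 0.09, adjusted p = 0.445 by edgeR, and in unique reads of Rps12 it was 0.30 ± 0.17.

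On the lower side, Rpl36al, Rps21, Rpl39l and Rpl10 had the smallest p-values, and all 4 overlapped between groups with unadjusted p-values from 0.212 to 0.404 in edgeR. Rpl10, which joins the large subunit last, differed between total reads, unique reads and the sum with its copy. It had 87.4, 47.5 and 101 CPM in CD mice and 67.6, 64.9 and 74.7 CPM in pLPD mice, with a log2 fold change of -0.18 ± 0.21. The second CD mouse, low in Rpl10, had 85.4% of the sum on Rpl10-ps3, where the other F1 mice had 71.2 to 82.6%. With the copy added, the levels were 293, 312 and 358 CPM in CD and 358, 382 and 371 CPM in pLPD mice, which overlap by a narrow margin. The log2 fold change became 0.16 ± 0.09 (adjusted p = 0.441 by edgeR), and in unique reads it was 0.54 ± 0.19 (adjusted p = 0.182 by edgeR), so the sign turned. The coefficient of variation over 10 libraries was 19.1% for Rpl10 alone and 8.91% for the sum, and for Rpl27 21.2 and 7.94%. For Rps12 it was 24.9 and 17.6%. For the copy alone it was 12.3% for Rpl10-ps3, 7.95% for Rpl27-ps3 and 17.4% for Rps12-ps3. For Rpl27 and Rps12 the sum thus varied about as much as the copy, which holds most of the reads.

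**Figure D3:**
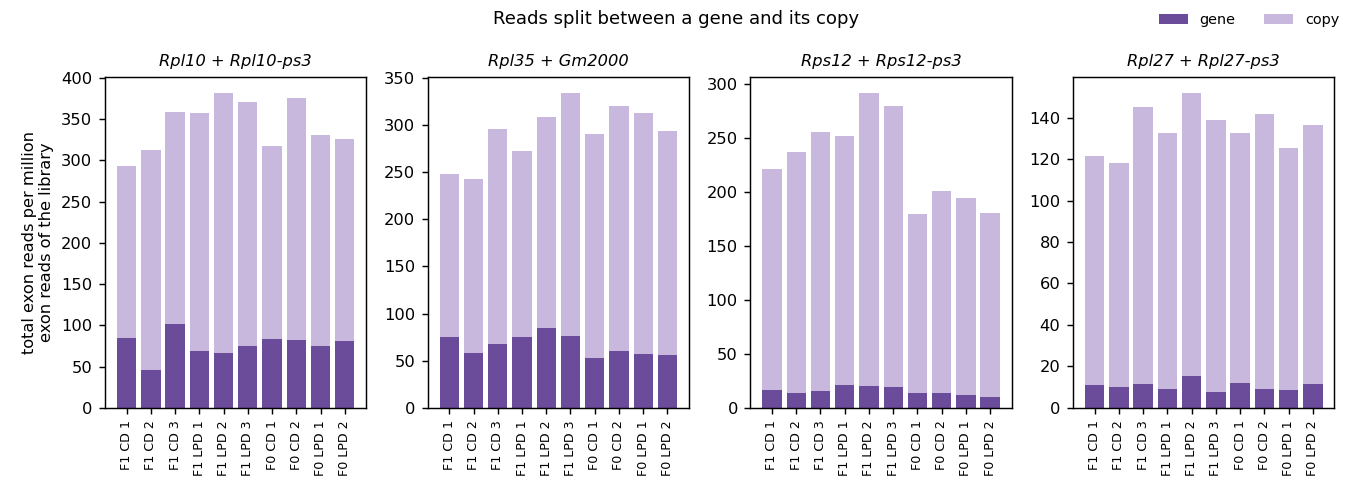
Total exon reads in CPM (y axis) in each library (x axis) for a gene (dark) and its retrocopy (light), stacked. The copies hold 77.6 to 93.3% of the pooled sum, and the sum of Rpl10 and Rpl10-ps3 varies less than Rpl10 alone (8.91 against 19.1%).

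Rpl5 and Rpl11, which with 5S rRNA form the particle that binds Mdm2 when ribosome assembly fails, were read together. Rpl5 had 340, 339 and 352 CPM in CD and 397, 403 and 364 CPM in pLPD mice, without overlap, log2 fold change 0.18 ± 0.08 and adjusted p = 0.351 by edgeR. Rpl11 had 260, 226 and 231 CPM against 233, 233 and 253 CPM, which overlap, with 0.00 ± 0.09. Unique reads gave 0.25 ± 0.21 for Rpl5 and -0.12 ± 0.14 for Rpl11, both with overlapping groups, and RPKM gave 0.01 and -0.16. Neither passed the test, and the difference between them was not tested.

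Other transcripts moved with the groups in F1. Reads on introns were 36.0 to 37.5% of reads on nuclear protein-coding genes in CD mice and 40.7 to 48.4% in pLPD mice, highest in pLPD mouse 1. Mitochondrial rRNA took 9.29 to 10.5% against 13.5 to 18.2% of reads on genes. All 12 of 12 B and T cell markers, among them Cd79a and Cd3e, had log2 fold changes above 0, 0 of them called, with sums of 930 to 1105 against 1009 to 1426 CPM. All 6 of 6 macrophage markers were below 0, 4 of them called, with sums of 919 to 1181 against 690 to 762 CPM. Of 3 epithelial markers tested, Krt8 and Krt18 fell, and the 5 epithelial markers summed to 8.25 to 12.9 against 0.16 to 3.39 CPM. The 4 endothelial and 5 red blood cell markers were all below 0, and 0 of them were called. Among 7 adipocyte markers 5 were above 0, 0 of them called. Their part in the ribosomal protein values was not tested. In bulk tissue, fewer cells of a type and less RNA per cell cannot be told apart.

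In F0, where the mice themselves ate the diets, the family did not lean to either side. Of 83 members tested, 0 were called higher and 0 lower by edgeR, where 1.18 and 1.32% of 14581 genes were. At an unadjusted p under 0.05, 0 members were higher (7.53% of all genes) and 1 lower (8.2% of all genes), and DESeq2 and limma called 0. The log2 fold change was above 0 in 44 and below 0 in 39, with a median of 0.00 for the members and for all genes. Both LPD mice were higher than both CD mice for 10 members (23% of all genes) and lower for 12 (23.5% of all genes). The score was -0.05 and 0.04 in the CD mice and 0.04 and -0.05 in the LPD mice, so each diet held a mouse on either side. The median log2 fold change was -0.01 over 51 large and 0.02 over 32 small subunit genes. The median was -0.04 without CD mouse 1 and -0.05 without LPD mouse 1, and 0.05 without CD mouse 2 or without LPD mouse 2, so its sign rests on single mice. In unique reads, 0 of 82 members were called higher (1.38% of 13421 genes) and 1 lower (1.56% of genes), and at an unadjusted p under 0.05 there was 1 in each direction (7.5 and 8.37% of genes). Both LPD mice were higher for 14 members (23% of genes) and lower for 7 (23.6% of genes). On RPKM the median over members was -0.05, as for all genes, with 21 of 83 above 0. Other markers in F0 were 9 of 12 B and T cell genes above 0 with 1 called, 3 of 6 macrophage genes below 0 with 1 called, 5 of 5 red blood cell genes above 0 with 0 called, 7 of 7 adipocyte genes above 0 with 0 called, and 2 of 4 endothelial genes below 0 with 0 called. Their part was not tested.

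The exception in size was Rpl3l, which replaces Rpl3 in ribosomes of striated muscle. It had 54 and 89 exon reads on CD and 32 and 24 on LPD, all of them unique, or 6.02 and 8.88 against 3.36 and 2.80 CPM. Both LPD mice lay below both CD mice, with a log2 fold change of -1.27 ± 0.28 (SE, n = 2 per group, 95% interval from -1.91 to -0.63) and an adjusted p of 0.0556 by edgeR, just over the threshold. It passed the threshold in unique reads (adjusted p = 0.0468), with CD mouse 1 left out (0.0376) and under 3 other settings. Over all settings its adjusted p ran from 4.6e-05 to 0.340, and the log2 fold change was below 0 in each. Skeletal muscle markers moved with it: 8 of 8 (Acta1, Ckm, Mylpf, Tnnt3, Tnnt1, Myh1, Myh4 and Myh7) were below 0 and 5 fell past the threshold, and their sum was 1347 and 1982 CPM on CD against 939 and 683 on LPD. Their part in Rpl3l was not tested. In F1 the muscle markers summed to 40.5 to 170 CPM, and Rpl3l was listed with 0, 3 and 3 reads in CD and 4, 0 and 5 in pLPD mice, too few to test.

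Among the other members in F0, Rpl39l was the only one beyond 0.5 on the log2 scale. On the lower side after Rpl3l came Rpl29, Rps12 and Rpl24, with log2 fold changes of -0.18 ± 0.09, -0.30 ± 0.16 and -0.15 ± 0.09 and adjusted p-values from 0.402 to 0.461 by edgeR. Rps12 was 13.4 and 13.5 CPM on CD and 11.8 and 10.0 CPM on LPD, and the log2 fold change was -0.05 ± 0.19 in unique reads and -0.01 ± 0.10 with Rps12-ps3 added. On the higher side, Rpl39l, known as a testis paralog, had 8 and 12 reads on CD and 15 and 21 on LPD (log2 fold change 0.92 ± 0.44, adjusted p = 0.362 by edgeR). Rps21, Rps15a and Rpl9, with 0.12 ± 0.08, 0.11 ± 0.08 and 0.11 ± 0.09, followed.

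**Figure D4:**
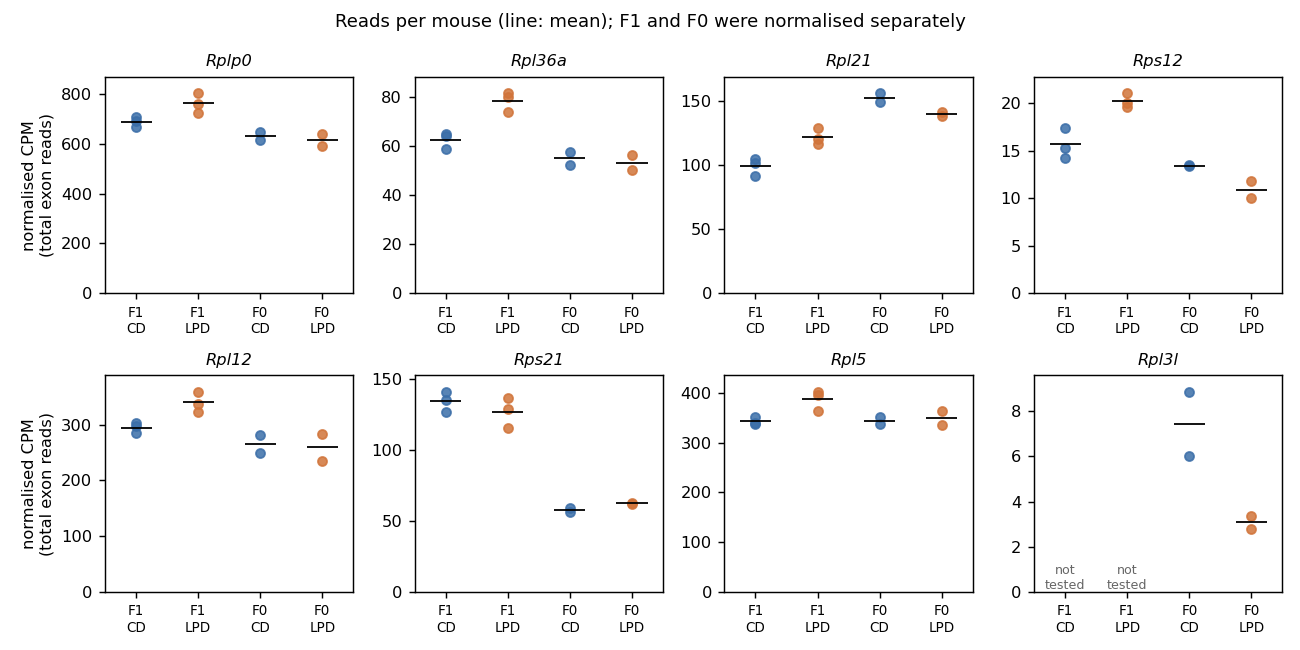
Normalised CPM from total exon reads (y axis, from 0) of 8 ribosomal protein genes in each mouse (points) of the 4 groups (x axis), with the group mean as a line. Rpl36a, Rpl21 and Rps12 do not overlap between F1 diets, and Rpl3l does not overlap between F0 diets. F1 and F0 were normalised separately, so levels are compared within a generation.

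The interaction of generation and diet asks whether the difference between diets was itself different in F1 and F0. Of 83 members tested in all 10 libraries, 0 were called in either direction by edgeR, where 0.357% of 15111 genes were called higher and 0.893% lower in F1 relative to F0. At an unadjusted p under 0.05, 3 members were on the higher side (4.91% of all genes) and 0 on the lower (7.58% of all genes). Those 3 were Rpl21, Rps12 and Rpl36a, with log2 differences of 0.42 ± 0.12, 0.66 ± 0.20 and 0.36 ± 0.14 and adjusted p-values of 0.130, 0.143 and 0.266. In unique reads the values were 0.35 ± 0.23, 0.34 ± 0.25 and 1.18 ± 0.35, and with Rps12-ps3 added to Rps12 its value was 0.16 ± 0.14. In unique reads, 0 of 83 members were called (0.472% of 13785 genes higher and 1.31% lower), and 2 were higher and 0 lower at an unadjusted p under 0.05 (4.99 and 7.76% of genes). On the lower side of the total reads, Rpl39l, Rps21, Rps27l and Rpl7l1 had the smallest p-values, with adjusted p-values from 0.464 to 0.719. The median over members was 0.06, with 62 of 83 above 0, but on log2 RPKM it was -0.03 with 27 of 83 above 0, beside all-gene medians of -0.00 and -0.09. That median ran from 0.02 without F0 LPD mouse 2 to 0.12 without F0 CD mouse 1.

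The paralogs other than Rpl3l, Rpl39l and Rpl36al, which are described above, are given here. Rpl10l, a retrocopy-derived relative of Rpl10 known from the testis, had 7 reads in all 10 libraries, 6 of them in pLPD mouse 3. Rps27l had 36.5, 35.6 and 46.2 CPM in F1 CD and 36.2, 34.0 and 40.6 CPM in pLPD mice, log2 fold change -0.09 ± 0.13. Rpl22l1, which is known to be kept low by Rpl22, had 18.5, 17.7 and 21.1 against 18.6, 20.0 and 14.2 CPM, and Rpl7l1 had 64.3, 66.4 and 59.8 against 57.0, 60.5 and 64.3 CPM. None of the 3 passed the test in F1 or F0, and all their F1 groups overlapped.

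Between the control mice of F1 and F0, single members differed more than between diets. The values are RPKM, with no test, since age and the prefix of the library names differ as well. Rps21 stood at 81.2, 75.5 and 83.4 RPKM in F1 CD and 36.2 and 38.8 RPKM in F0 CD mice, and in LPD mice at 56.4 to 74.9 in F1 and 38.9 to 39.3 in F0. Rplp2, a stalk protein, stood at 65.7, 62.6 and 73.6 against 29.9 and 35.4 RPKM, and Rpl22l1 at 8.61, 8.58 and 10.6 against 3.45 and 5.39 RPKM. In the other direction, Rpl3l was at 0.00 to 0.12 RPKM in F1 CD and 1.92 and 2.88 RPKM in F0 CD mice, where the muscle markers were also lower in F1. Rpl21 was at 12.6, 14.4 and 15.4 against 24.1 and 23.4 RPKM, and Rps28 at 49.8, 50.8 and 54.7 against 76.9 and 84.3 RPKM. None of these ranges overlapped, but these genes had the most extreme log2 ratios of the 83 members in either direction. Their lack of overlap therefore follows largely from how they were picked. How many members or genes overlapped in this comparison was not counted. Rplp2 and Rps28 were chosen for this paragraph after their values were seen. Of 83 members, 42 were higher in F1, with a median log2 ratio of 0.01 against -0.11 over all genes. Of the members, 8 differed by more than 0.5, where 21.4% of all genes did.

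Genes that work with the ribosome were counted from lists. Among 30 genes of ribosome biogenesis, such as Ncl, Npm1 and Fbl, 20 were above 0 in F1 with a median log2 fold change of 0.06, and 13 in F0 with -0.02. Among 28 initiation factors and mRNA-binding proteins, 20 were above 0 in F1 with a median of 0.05, and 14 in F0 with -0.00. None of these 58 genes was called in either generation. Among 8 elongation factors, 3 were above 0 in F1 and 4 in F0, 0 called. In F1, Eef1a1, whose mRNA carries a TOP tract, had 0.11 ± 0.10, and Pabpc1, the poly(A)-binding protein, 0.10 ± 0.09. Among 5 tested genes fused to or docked on the ribosome, 5 were above 0 in F1 with a median of 0.13. In F0 1 was above 0, with a median of -0.04, and 0 were called in either generation. Fau had a log2 fold change of 0.00 in F1, Rack1 0.13, Serbp1 0.09 and Rps27a 0.15, and the highest of the 5 was 0.17. Rps27a is also one of the 84. The mitochondrial ribosomal protein genes, 78 in number, had 29 above 0 in F1 with a median of -0.06 and 36 above 0 in F0 with -0.02, 0 called in either.

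In the mTOR pathway, which reads amino acid supply, 18 of 20 listed genes were tested. In F1, 1 of them fell and 0 rose, in F0 2 rose and 0 fell, with medians of -0.03 and 0.03. Deptor, which binds and restrains mTOR, fell in F1 with a log2 fold change of -0.52 ± 0.10 (adjusted p = 0.0401) and rose in F0 with 0.74 ± 0.10 (adjusted p = 0.0136). The difference between generations was -1.27 ± 0.15, adjusted p = 0.00541 by edgeR's interaction test. Sesn2, which senses leucine upstream of mTOR, rose in F0 with 1.24 ± 0.20 (adjusted p = 0.0191). The members themselves showed no call in either generation.

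A few gene starts are printed to show the pyrimidine tract where it is present and where it is short. RefSeq promoter sequences (GRCm38.p6, 250 bases before to 50 after the annotated start) matched 64 of the 84 members. Each window below runs from 40 bases before the annotated start to 20 bases after it on the gene's strand, and capitals mark its longest run of C and T.
Rpl7a, chr2:26910767-26910826, plus strand: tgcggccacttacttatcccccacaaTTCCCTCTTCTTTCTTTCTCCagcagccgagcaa
Rpl35, chr2:39005112-39005171, minus strand: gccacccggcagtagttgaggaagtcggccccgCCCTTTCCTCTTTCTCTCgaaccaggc
Rps12, chr10:23787190-23787249, minus strand: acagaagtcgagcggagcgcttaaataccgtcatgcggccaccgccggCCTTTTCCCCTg
Rps6, chr4:86857348-86857407, minus strand: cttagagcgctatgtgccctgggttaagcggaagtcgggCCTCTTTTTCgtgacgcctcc
Rplp0, chr5:115559427-115559486, plus strand: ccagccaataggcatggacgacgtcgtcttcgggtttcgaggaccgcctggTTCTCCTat
Rpl3l, chr17:24727786-24727845, plus strand: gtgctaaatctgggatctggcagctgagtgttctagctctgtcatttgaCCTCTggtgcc

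A run of 8 or more C or T on the gene's strand within 20 bases of the start was present in 33 of 64 members (51.6%), in 23.7% of 27025 genes and in 24.6% of 69 mitochondrial ribosomal protein genes. The letters CTTTCC, on the gene's strand anywhere in the 300 bases, were found in 40.6% of members against 16.0% of genes, and a match can lie inside such a run. The letters CCGGAAG, on either strand, were found in 40.6% of members, 37.7% of mitochondrial ribosomal protein genes and 9.93% of genes. The letters AAGATGG, on either strand, were found in 15.6% of members, 18.8% of mitochondrial ribosomal protein genes and 7.28% of genes. The letters TATAAA, on the gene's strand between 20 and 40 bases before the start were found in 1 of 64 members (1.56%) against 2.41% of genes. These are matches of letters in windows placed by the annotation, whose start can lie some bases from the true one.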

How the data were processed

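Total RNA of iWAT was depleted of rRNA, made into directional libraries and sequenced at 36 bases from each end, and the authors used CLC Genomics Workbench to map the reads (mm10). Counts as deposited give, per the file headers, total and unique reads on exons, introns and exon junctions of each gene, as the authors made them and with no normalization. How reads fitting several places were assigned, and whether counting used strand, is not given in the sources used here. The deposited RPKM are the authors' total exon reads divided by exon length and by 1 mapped-read total per library. Exon reads were 6351075 to 10044546 per library, and 3 reads equal 0.299 to 0.472 CPM (counting error only).

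Each generation was fitted on total exon reads of all genes in edgeR 4.0.16 (R 4.3.3) with filterByExpr, TMM, the quasi-likelihood F test, two-sided, and Benjamini-Hochberg adjustment (threshold 0.05). Interactions were fitted over 10 libraries. Standard errors are the log2 fold change divided by the square root of F. P-values measure the spread between single mice. On simulated counts (F1, 13867 genes), 78.1% of genes changed by 1 on the log2 scale and 20.6% of those changed by 0.5 were called, and in F0 (14386 genes) 81.8 and 34.0%. The simulation gave genes of like level the same spread between mice and put no shift between libraries other than their totals. Rates in the real data may therefore differ. Alternatives used DESeq2 1.42.0, limma 3.58.1 on log2(RPKM + 0.1), unique reads, other filters and scalings and each mouse left out. Junction reads and added copies (19 annotated genes that share at least 10% of a member's 36-base stretches and have at most 5% unique reads) were chosen after seeing the data.

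Genes named are Rplp0, members past the threshold, otherwise the 4 with the smallest p in each comparison and direction, the paralogs, Rpl5, Rpl11, and the 4 highest and lowest in RPKM and in unique share (at least 100 reads), and some of these genes are not reported here. The members, lists and rules were chosen with earlier results of these data known. CPM of named genes are scaled by TMM within a generation, and sums over markers or copies are not. Sequences are from GENCODE vM21 and RefSeq.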

Additional observations from a re-analysis of the deposited data

Results flagged for a closer look

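For Rpl21, Rps12, Rps23 and Rpl31, every pLPD mouse of F1 lay above every CD mouse. For the same genes, both LPD mice of F0 lay below both CD mice. Over all genes, the first condition held for 9.78% in F1 and the second for 23.5% in F0. The share of all genes meeting both was not counted. These genes were picked for meeting both, and the tests below use the same values. In unique reads none of them met both conditions. There Rps12 met only the first, Rpl21 and Rpl31 met only the second, and Rps23 met neither. The log2 differences between generations were 0.42, 0.66 and 0.24 for Rpl21, Rps12 and Rps23. For these, edgeR's interaction test gave adjusted p-values of 0.130, 0.143 and 0.436, so none passed the threshold. For Rps12 the difference was 0.34 in unique reads and 0.16 with Rps12-ps3 added. Rps23, with 0.65% unique reads, had 243, 252 and 262 CPM in F1 CD and 267, 269 and 283 CPM in pLPD mice, and 185 and 197 against 180 and 168 CPM in F0. In its few unique reads the difference between generations was -0.51 ± 0.89, so the sign turned.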

How the results depend on the processing

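The counts of members called higher or lower in F1, higher in F0, and called in the interaction were 0 under every alternative run, including leaving out each mouse. Members called lower in F0 went from 0 to 1 (Rpl3l) with unique reads, with no filter, with at least 10 reads in every library, with the replicate block (mice of equal number paired) and, among the mice left out, without F0 CD mouse 1 (range 0 to 1). The block changed no other call of members, while all-gene calls went from 20 higher and 144 lower to 48 and 212 in F1 and from 172 and 192 to 656 and 735 in F0. The same-number correlations were 0.07, 0.01 and 0.01 in F1 and 0.06 in F0, all under 0.1, and no label ties the numbers to a shared litter or day, so the numbers were not taken as pairs. Without a mouse, the median log2 fold change was 0.06 to 0.11 in F1 and -0.05 to 0.05 in F0. The F1 median, 0.08, was 0.14 scaled by library total alone, -0.078 on RPKM and 0.20 with the exon share of the library as a covariate, beside all-gene medians of 0.06, -0.15 and 0.02. Exon share was 49.2 to 51.2% in F1 CD and 39.3 to 45.4% in pLPD mice, without overlap. The covariate fit can therefore hardly tell diet from exon share, and its values are given as a description. On RPKM, 11 of 82 members were above 0 in F1 in place of 68. Signs turned in F1 for, among others, Rpl10 (0.54 in unique reads, 0.16 with named pseudogenes or copies added, -0.45 to 0.039 without a mouse, the highest without F1 CD mouse 3), Rpl12 (-0.051, unique reads), Rpl11 (-0.12 in unique reads, -0.16 on RPKM), Rps23 (-0.050, RPKM), Rplp0 (-0.015, RPKM), and, with exon share as a covariate, Rpl36al (0.0885), Rpl39l (0.56) and Rps21 (0.083). In F0 they turned for Rpl9 (-0.0096, unique reads) and Rplp0 (-0.10 to 0.018 without a mouse, above 0 without CD mouse 2 or LPD mouse 2). All-gene calls in F1 ranged without a mouse from 1 higher and 17 lower (without CD mouse 1) to 140 and 370 (without CD mouse 3), beside 20 and 144. On simulated counts over all genes, 20.6% of genes changed by 0.5 were called in F1 and 34.0% in F0. These rates may not hold for the members, for which recovery was not simulated. On total reads the median SD (log2) between mice of a group was 0.085 for the members in F1, against 0.174 over all genes. Over 2452 other F1 genes of like level it was 0.105. In F0 it was 0.077 for the members and 0.125 over all genes. Over 3434 other F0 genes of like level it was 0.080, close to the members. With 2 or 3 mice, small differences can still be missed, and many members had few unique reads for the test on unique reads.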
